A study of Homo sapiens with 2 samples.

Results

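CXCL8, CXCL1, CXCL2, CXCL3, CXCL5 and CXCL6 are the CXC chemokines best known for drawing neutrophils into inflamed tissue. They were measured here with 6 probes, chosen by probe name out of the 75149 probes on the arrays that are no controls. The probe names were A_32_P87013 for CXCL8, A_23_P7144 for CXCL1, A_24_P257416 for CXCL2, A_24_P183150 for CXCL3, A_24_P277367 for CXCL5 and A_23_P155755 for CXCL6. All 6 were present on each array, with 2 spots per probe. The gene of each probe is the one in Agilent's catalogue. The deposited files list the probes without genes, so these names were not checked against the files. The cells were THP-1, a human monocytic leukaemia line obtained from ATCC and grown in RPMI-1640 with serum and β-mercaptoethanol. 1 array held RNA of control cells, for which the labels name DMSO and the paper's methods say untreated. The other held RNA of cells stimulated with lipopolysaccharide (LPS), the outer membrane component of Gram-negative bacteria, at a dose that neither source gives. The labels give 48 h for both. Monocyte markers were not analysed here, since no probe is paired with their genes.

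Chemokines are small secreted proteins that guide migrating leukocytes. The CXC chemokines of this set carry a glutamate-leucine-arginine (ELR) motif ahead of their first cysteines and bind CXCR2 on neutrophils, and CXCL8 and CXCL6 also bind CXCR1. In monocytes and macrophages LPS is sensed by TLR4, and the signal that follows activates NF-κB and AP-1, transcription factors with known sites in chemokine promoters.

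The 6 genes lie together on chromosome 4. In the RefSeq annotation of GRCh38.p14 they are found within a run of 17 genes, in the order CXCL8, CXCL6, CXCL1, CXCL5, CXCL3 and CXCL2. The other protein-coding genes of that run are PF4V1, PF4 and PPBP, which encode platelet chemokines of the same family. The 120 bases ahead of each gene's start, from RefSeq, are shown because the 6 genes share a stretch of letters there. Whether that stretch bears on the signals with LPS was not tested. All are written 5′ to 3′ on the strand of the gene, and capitals mark the letters GGAATTTCC, a form of the NF-κB (κB) site. They lie at chr4:73740449-73740568 (plus strand) for CXCL8, chr4:73836558-73836677 (plus) for CXCL6 and chr4:73869273-73869392 (plus) for CXCL1. Those on the minus strand lie at chr4:73998678-73998797 for CXCL5, chr4:74038690-74038809 for CXCL3 and chr4:74099196-74099315 for CXCL2.
CXCL8: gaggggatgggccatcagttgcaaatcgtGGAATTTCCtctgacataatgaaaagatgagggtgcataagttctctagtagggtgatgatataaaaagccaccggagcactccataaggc
CXCL6: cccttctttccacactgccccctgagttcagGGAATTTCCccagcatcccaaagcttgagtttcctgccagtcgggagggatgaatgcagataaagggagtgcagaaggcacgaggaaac
CXCL1: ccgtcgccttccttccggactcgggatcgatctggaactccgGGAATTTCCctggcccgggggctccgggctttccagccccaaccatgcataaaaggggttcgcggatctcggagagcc
CXCL5: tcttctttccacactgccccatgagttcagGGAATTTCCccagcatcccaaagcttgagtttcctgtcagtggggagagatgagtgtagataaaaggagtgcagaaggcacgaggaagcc
CXCL3: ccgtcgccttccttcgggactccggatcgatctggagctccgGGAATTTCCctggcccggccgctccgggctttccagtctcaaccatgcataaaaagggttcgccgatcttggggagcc
CXCL2: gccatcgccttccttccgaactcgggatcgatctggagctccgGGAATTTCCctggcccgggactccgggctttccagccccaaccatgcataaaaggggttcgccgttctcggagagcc

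The letters GGAATTTCC were chosen after these promoters had been read, and were searched on both strands from 250 bases before to 50 bases after each start. All 6 promoters held them once, on the strand of the gene. Counted back from the base before the start as -1, the match ran from -91 to -83 in CXCL8, from -89 to -81 in CXCL6 and from -90 to -82 in CXCL5. It lay closer to the start in the other genes, from -78 to -70 in CXCL1 and CXCL3 and from -77 to -69 in CXCL2. Of 27305 RefSeq promoters of that length, 129 (0.472%) held these letters, the 6 chemokine promoters among them. This is no test, since the letters were picked from those 6 promoters. Nor are the 6 matches independent, since some of these promoters are alike. Those of CXCL5 and CXCL6 were identical at 83.1% of alignment positions, gaps counted, and those of CXCL1 and CXCL3 at 82.5%. The general NF-κB consensus, which overlaps those letters, was matched in 5 of the 6 and in 10.8% of all promoters. CXCL8 was the promoter without a match to it. The AP-1 letters TGACTCA were found only in CXCL8 among the 6, from -137 to -131, and in 4.92% of all promoters. A match is a run of letters and not a measured binding site.

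**Figure D1:**
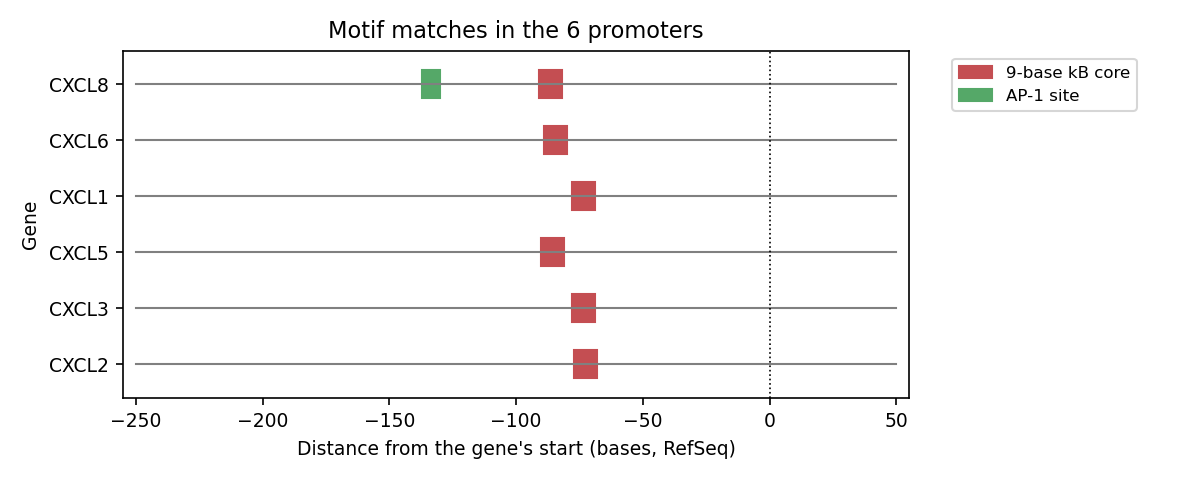
Matches to the letters of the κB core (red) and of AP-1 (green) in the 6 promoters, with the distance from the gene's start in bases on the horizontal axis and 1 gene per line. All κB matches sit between -91 and -69, and CXCL8 alone has an AP-1 match.

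With LPS all 6 chemokine probes gave a brighter signal than in control cells, by 3.31-fold to 9.06-fold after each array was scaled to the 75th percentile of its probes. CXCL6, CXCL1 and CXCL3 differed most, CXCL8 and CXCL2 less and CXCL5 least. The place of CXCL6 and the upper end of the range depend on the background treatment. With limma's normexp background correction and an added offset of 50, a setting chosen here, the fold of CXCL6 was 4.79. It then came after CXCL8. The threshold for a call was 2-fold, and by it all 6 were called higher and 0 lower. Of the 69392 probes well above background on at least 1 array, 0.783% were called higher and 16.5% lower. These shares move with the processing, to 4.07% and 5.2% under quantile normalization and to 0.45% and 1.89% with normexp, while all 6 chemokine probes were called higher under both. Of the probes with names starting in A_, as those of the chemokines do, 1.13% were called higher. The median difference of the 6 was 2.63 (log2, LPS minus control), beside -0.10 over the 69392 probes. Each condition had 1 array, so there were no replicates and no p-value was computed. The spots of a probe are technical repeats on 1 array. More RNA per cell and more cells that express a gene cannot be told apart in such bulk RNA.

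Both arrays were on 1 slide, where condition and position cannot be told apart. Dim probes tended to be lower on the LPS array, whereas the chemokine probes were of middle or high signal. The median difference was 0.03 (log2) in the brightest of 10 equal groups of probes, which holds CXCL1, CXCL2, CXCL3, CXCL5 and CXCL8, and -0.03 in the group that holds CXCL6. In these groups 0.639% and 1.25% of the probes were called higher. No chemokine spot was saturated, and all were well above background.

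CXCL1, CXCL2 and CXCL3 are the GRO chemokines, close relatives first described as growth-regulated oncogenes. The spots of CXCL1 had intensities of 2581 and 2764 for control cells, and 22094 and 24864 for stimulated cells. Each spot on the LPS array was several times brighter than both control spots. The scaled difference was 3.0 (log2), an 8.0-fold higher signal, with an error of 0.09 from the spots. This error was computed from the pooled SD between spots of probes of like signal on each array, and it leaves out any variation between cultures. The lowest LPS spot against the highest control spot gave 7.29-fold, and the opposite pairing gave 8.78-fold.

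For CXCL3 the spots read 950 and 956 for control cells, and 7604 and 7731 for stimulated cells. The spots were even, with SDs (log2) of 0.01 in control and 0.02 with LPS. CXCL3 was 7.34-fold higher with LPS, a difference of 2.87 ± 0.09 (log2, spot error). CXCL2, known in the mouse literature as MIP-2, had control intensities of 2252 and 2184. Its LPS intensities were 10513 and 10954. The 4.41-fold higher signal, or 2.14 ± 0.09 (log2), was the smallest of the GRO genes, 0.73 ± 0.13 below that of CXCL3 and 0.86 ± 0.13 below that of CXCL1. The probes of these genes may also take up each other's transcripts, which are alike in sequence. This was not tested, since the files hold no probe sequence.

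CXCL8, long called interleukin-8, had control intensities of 3500 and 3470. On the LPS array its spots read 18785 and 19987, and the dimmer of them carried an outlier flag of the scanner software for uneven pixels and was left out. The difference of 2.39 ± 0.12 (log2) is a 5.23-fold higher signal with LPS. With the flagged spot included it was 2.34.

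CXCL5 and CXCL6 are a pair of close relatives, known as ENA-78 and GCP-2, that are made by epithelial cells as well as by monocytes. CXCL6 was the dimmest of the 6 on both arrays. Its control spots were at 54.4 and 54.7, and its LPS spots at 512 and 575. Before background subtraction the control spots had read 80.0 and 79.0 over local backgrounds of 21.0 and 18.0, so that the background made up more of this value than of any other in the set. CXCL6 was 9.06-fold higher on the LPS array, the largest difference of the 6, at 3.18 ± 0.15 (log2). This size depends on the background treatment. The normexp correction of limma was run with an offset of 50 added to each spot, a setting chosen here. With it the difference was 2.26 (log2), or 4.79-fold, and CXCL6 then ranked behind CXCL1, CXCL3 and CXCL8. How much of this drop comes from the offset was not tested.

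CXCL5 was the brightest probe of the set, with control spots at 18364 and 18220 and LPS spots at 61551 and 71825. All 4 spots carried the outlier flag for uneven pixels, and since no other spots of the probe exist they were used. The raw median intensities of the LPS spots were 59961 and 69674.5, below the highest raw spot of that array at 180675. CXCL5 was 3.31-fold higher with LPS, a difference of 1.73 ± 0.09 (log2). That error comes from other probes of like signal. The LPS spots of CXCL5 itself had an SD of 0.16 (log2), the largest of the set. Its lowest and highest pairings of LPS with control spots gave 3.06-fold and 3.59-fold. CXCL5 was the only member below 4-fold. Without CXCL5, 5 of 5 chemokine probes were called higher, beside 0.783% of the 69392 tested probes.

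**Figure D2:**
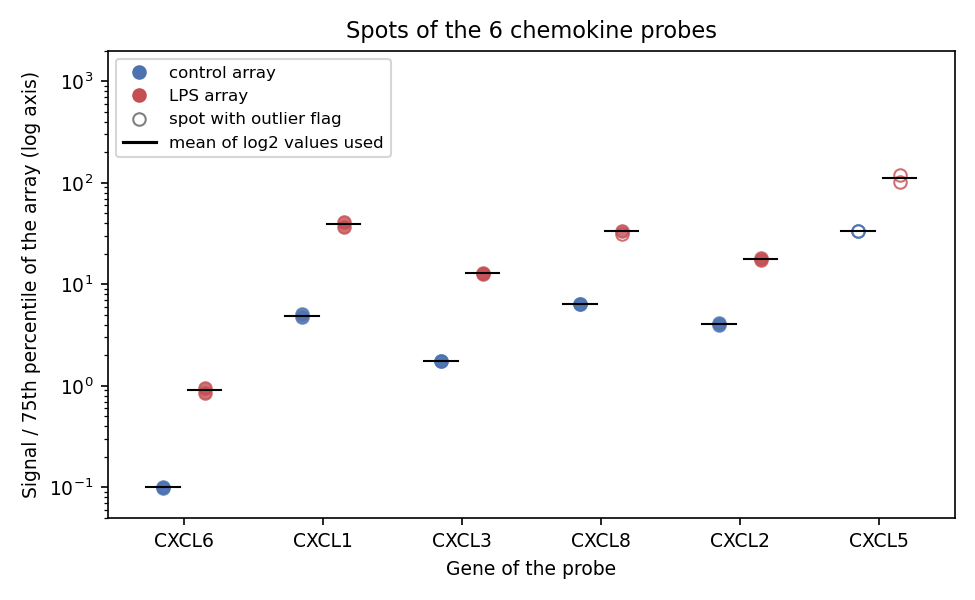
Signal of each spot divided by the 75th percentile of its array, on a log axis, for the control array (blue) and the LPS array (red). Open circles are spots with an outlier flag and lines are the values used. In all 6 genes both LPS spots lie above both control spots. Heights of different probes are not comparable with each other.

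The order of the differences was read against the spot error. CXCL6 exceeded CXCL1 by 0.18 ± 0.18 (log2), and CXCL1 exceeded CXCL3 by 0.13 ± 0.13, so neither of these neighbouring steps is beyond that error. CXCL6 exceeded CXCL3 by 0.31 ± 0.18, more than its error. With normexp this order was reversed, with CXCL6 at 2.26 and CXCL3 at 2.89. CXCL3 exceeded CXCL8 by 0.49 ± 0.15 and CXCL2 exceeded CXCL5 by 0.41 ± 0.13. These gaps are more than 3 times the spot error, which leaves out variation between cultures. For CXCL5 that error comes from other probes, while its own LPS spots had an SD of 0.16 (log2). The step from CXCL8 to CXCL2 was 0.25 ± 0.15. The place of CXCL5 at the end and of CXCL2 next to it was the same under all 9 alternatives computed for single values. These changed the scaling, the spots or the background. Several of them shifted all 6 values by a single amount and could not change the order. With normexp CXCL2 was at 2.11, close to CXCL6 at 2.26, where the spot error of that pair as reported was 0.18.

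**Figure D3:**
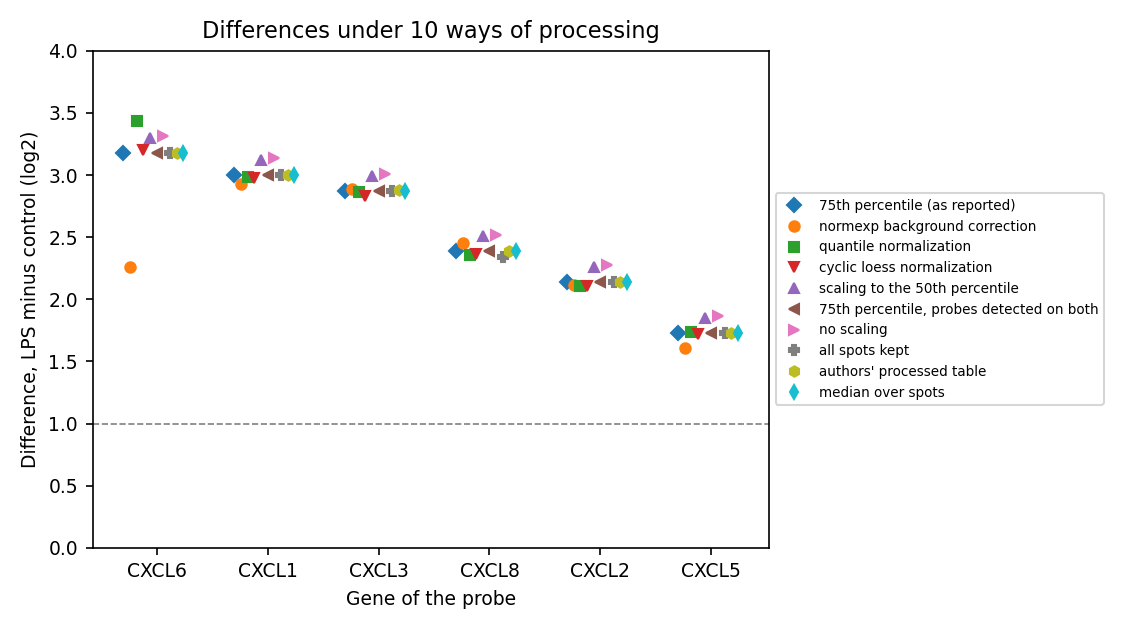
Difference between the arrays (log2, LPS minus control) for each chemokine probe under the reported processing and 9 alternatives, with a dashed line at 2-fold. Every value lies between 1.61 and 3.43. The normexp value of CXCL6, at 2.26, is the furthest from the others of its gene.

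Promoter identity and the differences with LPS are set side by side here, and any link between them was not tested. The CXCL1 and CXCL3 promoters were identical at 82.5% of alignment positions, gaps counted, and their differences lay 0.13 (log2) apart. CXCL3 and CXCL2, at 73.8%, lay 0.73 apart, and CXCL1 and CXCL2, at 71.9%, lay 0.86 apart. The CXCL5 and CXCL6 promoters were identical at 83.1%, and their differences lay 1.45 ± 0.18 apart, at the opposite ends of the set. This gap was 0.65 with the normexp correction. All spots of CXCL5 carried an outlier flag, and the control spots of CXCL6 were the dimmest of the set. CXCL8 had the least similar promoter, at 45.2% to 48.0% identity with the rest, and its difference was in the middle of the set. These are descriptions over 6 genes, with no test.

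Among all probes the 6 stood near the upper end. There were 27 probes with a difference at least as large as that of CXCL6, itself included, 33 for CXCL1 and 37 for CXCL3. For CXCL8 the number was 68, for CXCL2 it was 88 and for CXCL5 it was 168. CXCL5 was thus within the highest 0.242% of the 69392 probes and CXCL6 within the highest 0.0389%. Among the 32278 tested probes with names starting in A_, 122 were at least as high as CXCL5 and 22 at least as high as CXCL6. These places are those of the reported processing. They were not computed with normexp, where the difference of CXCL6 was 2.26 (log2). With 2 arrays any pair of probes runs exactly together or exactly opposite, so no probe was named for a pattern like that of the chemokines. The other CXC chemokines, the receptors CXCR1, CXCR2 and ACKR1, and the NF-κB genes were not analysed here, because no probe is paired with them.

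**Figure D4:**
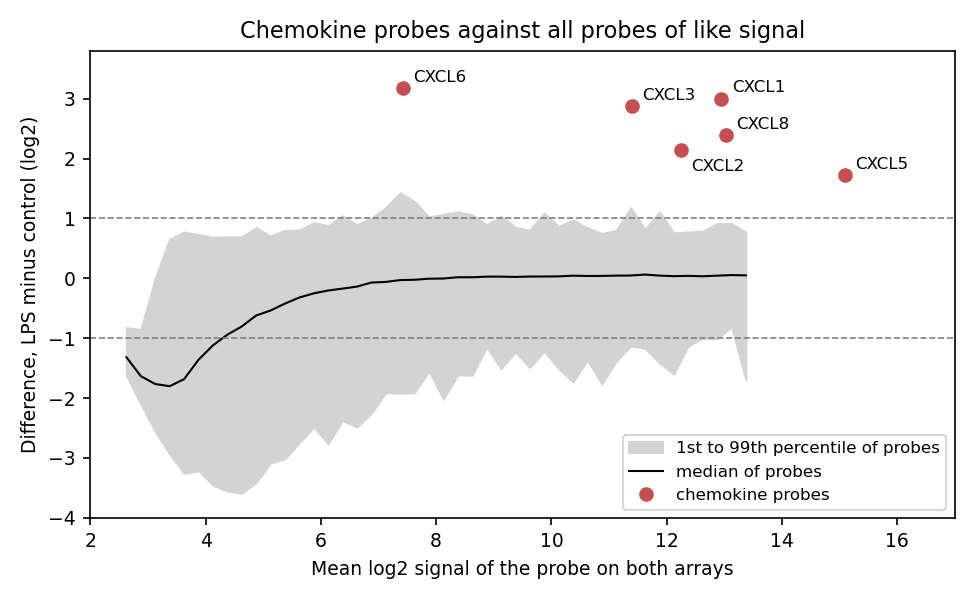
Difference between the arrays (log2, LPS minus control) against the mean log2 signal of a probe on both arrays. The grey band spans the 1st to the 99th percentile and the black line the median of probes in bins of signal, and dashed lines mark 2-fold. The 6 chemokine probes (red) lie between 1.73 and 3.18. The band ends at a lower signal than that of CXCL5, which therefore has no band to be compared with. The other chemokine probes lie above the band.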

How the data were processed

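Total RNA of THP-1 cells was amplified, labelled with Cy3 and hybridised to 1 Agilent array per condition. The authors deposited Agilent Feature Extraction 11.5.1.1 output, with an intensity per spot after background subtraction and spatial detrending by that software and no scaling between arrays. Its flags (0 or 1, no unit) came with it, as did a processed table of intensities per probe, whose making is not given in the sources used here. The array design names hg19. From these files, flagged outlier spots were left out unless a probe had no other, log2 intensities were averaged over spots, and the 75th percentile of each array (547 for control, 600 for LPS) was taken off, a shift of 0.13 between the arrays. Where only 1 array was well above background, the signal of the other was taken as no lower than the lowest detected signal there. If the other array then came out higher, the difference was set to 0. A call needed at least 2-fold. Alternatives were normexp with an offset of 50, quantile, cyclic loess, other percentiles, no scaling, all spots and medians over spots. Further ones were the authors' table, other thresholds and other filters. The members, lists and alternatives were chosen with earlier results of these data known. By rule all 6 members and no other probe were named. The lists of other chemokine, receptor, NF-κB and cell type marker genes were not used, for want of probe names. The calls were tested on simulated data with known changes. Spot noise and the shift between arrays were the same for all probes there, and both arrays had the same detected probes. The simulation thus did not cover probes well above background on only 1 array, or a shift that changes with signal. Promoters were matched by symbol for 6 of 6 genes and aligned globally in Biopython 1.88. Positions with a gap were counted as not identical. Python 3.11.15, numpy 2.4.6, pandas 2.3.3, matplotlib 3.10.9, R 4.3.3 and limma 3.58.1 were used. With 1 array per condition, variation between cultures, and so the precision of the differences, could not be estimated.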

Additional observations from a re-analysis of the deposited data

How the results depend on the processing

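All 6 chemokine probes were called higher and 0 lower in every setting run but 2. At a threshold of 4-fold 5 were higher, beside 0.156% of all tested probes. With only probes that had an unflagged spot on each array 5 of 5 were, beside 0.777% of all. That setting was added after the data were seen. The filters on dim probes could not alter the calls of the 6, which were well above background on both arrays. Nor could thresholds of 1.5-fold and 3-fold, since the smallest reported fold was 3.31. None of the 54 values of single probes under the 9 alternatives changed direction. Of these, 41 moved by less than the spot error and 13 by more, and the range was 3.05-fold to 10.8-fold. The order of the 6 was kept under 8 of the 9, normexp being the exception. Other percentiles, no scaling, medians over spots and the authors' table each shifted all 6 values by a single amount. They could not change the order. Apart from such a shift, keeping all spots altered CXCL8 alone. Quantile and cyclic loess normalization could have changed the order and did not. Normexp was run with an offset of 50 added to every spot, close to the control signal of CXCL6. It gave 2.26 (log2) for CXCL6, against 3.18 as reported and 3.43 with quantile normalization. The calls over all probes moved more. As reported, 543 probes were higher, and 312 were with normexp, 2827 with quantile normalization, 1648 with cyclic loess, 1794 at 1.5-fold, 214 at 3-fold and 108 at 4-fold. Of the calls 95.5% were lower as reported, 80.8% with normexp, 56.1% with quantile normalization and 71.6% with cyclic loess. The probes higher were then 0.45%, 4.07% and 2.37% of those tested, in the same order. Without scaling the median over the tested probes rose from -0.10 to 0.04 (log2), and that of the chemokine probes from 2.63 to 2.76. No paired analysis was possible because there was 1 array per condition, and leaving out an array was not possible for the same reason.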
